A study of Sus scrofa with 21 samples.

Results

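The comparison described here is that of pig hearts 28 days old with a myocardial infarction (MI) made on postnatal day 1 against hearts of the same age without one. It takes 5 of the 21 libraries of the study, those whose count columns are marked as MI on day 28 (n = 2) and as control on day 28 (n = 3), each from a separate pig. Per the labels' protocols, MI was made by tying off the left descending coronary artery for good. About 30 mg of tissue was taken from the border zone, the myocardium next to the ischaemic area, and from the matching region in the other pigs. The sample titles call the other pigs naive, while the protocol describes pigs that had the same operation without the tie, so the name naive is kept here without deciding between them. All pigs came from 1 farm and were fed bovine colostrum at first and cow's milk later. The sources used here give no sex, litter or library batch.

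The heart of a newborn pig can replace lost muscle for a short time after birth. When an infarct forms, dying muscle is cleared by leukocytes, fibroblasts lay down scar, and the border zone holds surviving cardiomyocytes beside scar and blood-derived cells. Cytokines of the interleukin 6 family signal through the shared receptor chain gp130 (IL6ST) and STAT3, and NF-kB and immediate early factors drive the first wave of genes in stressed tissue. Cardiomyocytes draw most of their energy from fatty acid oxidation in densely packed mitochondria.

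The levels below are CPM, a gene's counts as a share of its library on a fixed scale, with library sizes scaled by the trimmed mean of M values (TMM), and they compare a gene between libraries, not 1 gene with another. Fold changes are log2 values of MI over naive from edgeR's quasi-likelihood test, with Benjamini-Hochberg adjusted p over 15359 genes, and a gene is called at an adjusted p under 0.05. In all, 1053 genes were called, 6.86% of those tested. Of these, 687 rose in MI hearts (4.47% of tested genes) and 366 fell (2.38%). Both MI libraries lay above all 3 naive libraries for 2521 genes (16.4%) and below them for 3285 (21.4%), together 37.8% of tested genes. Of the 687 genes that rose, 580 had groups that did not overlap, as did all 366 that fell. The median log2 fold change over all tested genes was 0.005. These shares and this median are what the counts and medians of gene lists below are to be set beside. In whole tissue, fewer cells of a type and less RNA per cell cannot be told apart.

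The MI libraries differed from each other more than the naive libraries did. Pearson's r across genes was 0.913 for the MI pair and 0.958 to 0.977 for the naive pairs, a description in which genes are not replicates. Total counts were 78662965 and 49764677 in MI replicates 1 and 2, and 74912650, 51626718 and 56675676 in the naive libraries. Mitochondrially encoded genes took 34.6% and 19.2% of counts in the MI libraries, against 15.9%, 30.9% and 15.8% in naive replicates 1, 2 and 3. MI replicate 2 and naive replicate 2 belong to 4 libraries of the series that hardly hold counts of ENSSSCG00000035520, which the labels do not mark as a batch. With a term for those 4 libraries in the fit, 401 genes were called higher and 245 lower. The calls depend on each naive library. Without naive replicate 1, 205 genes were called higher and 109 lower, without replicate 2, 97 and 72, and without replicate 3, 12 and 5. Of the 118 called genes whose fold change is given here, 77, 60 and 16 kept the call without naive replicates 1, 2 and 3. Without replicate 3 those that kept it were OSMR, CXCL2, FOS, ZFP36, ZFP36L2, GFPT2, ANPEP, PLEKHO1, FXYD6, KCNQ5, ID4 and CSTB among the higher genes, and HR, ENTPD6, ANKRD6 and MRPL47 among the lower, at adjusted p of 0.0368 and above, and the others had adjusted p up to 0.147. Without MI replicate 1, 82 of the 118 kept it, and without MI replicate 2, 75. All 118 kept their direction in each of the 14 other fits.

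**Figure D1:**
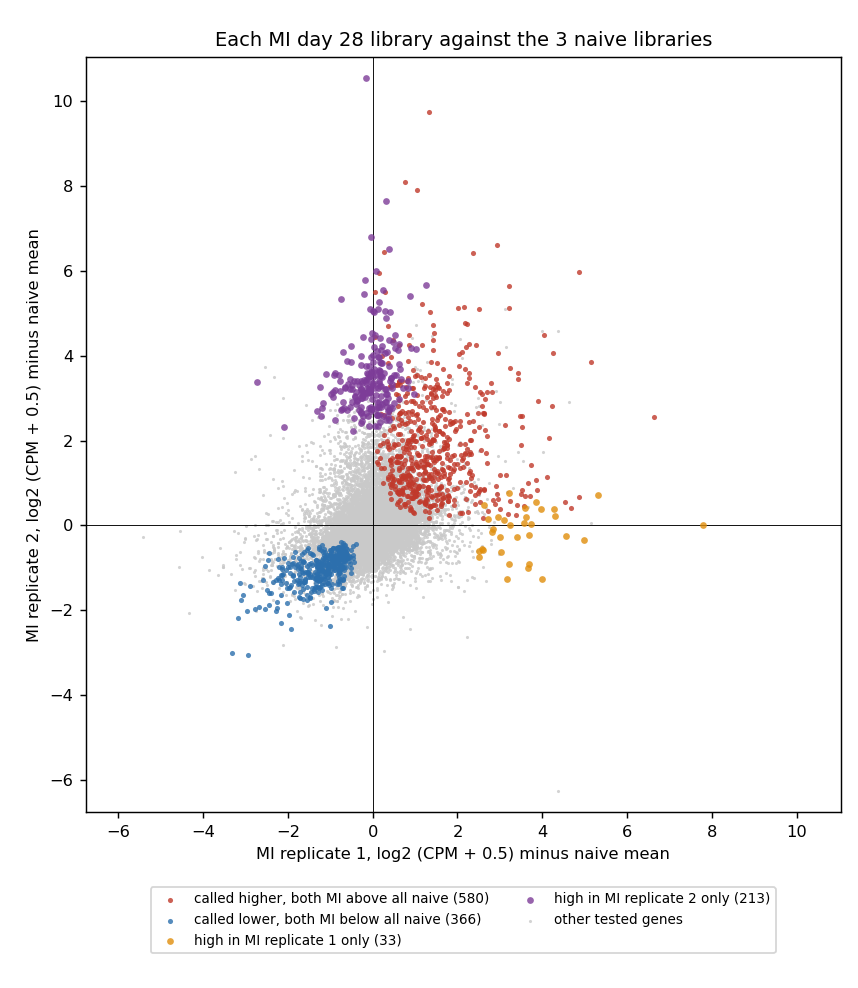
Each dot is 1 of the 15359 tested genes. The axes give log2 (CPM + 0.5) in MI replicate 1 (horizontal) and MI replicate 2 (vertical), each minus the mean of the 3 naive libraries. Red dots are the 580 genes called higher with both MI libraries above all naive ones, and blue dots the 366 called lower. The genes high in MI replicate 2 only (purple, 213) run up the vertical axis, and those high in MI replicate 1 only (orange, 33) along the horizontal one.

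Some genes of the gp130 pathway rose in both MI libraries, among them ligands, a receptor chain and a feedback inhibitor. OSM encodes oncostatin M, a cytokine of macrophages and neutrophils, and OSMR encodes the receptor chain that pairs with gp130 to bind it. OSMR (ENSSSCG00000016851) had 41.3 and 37.7 CPM in the MI libraries, against 12.8, 9.43 and 7.15 CPM in the naive libraries (log2 fold change 2.01 ± 0.28 SE, adjusted p = 0.00702). OSM was low throughout, at 1.48 and 2.39 CPM in the MI libraries, against 0.0883, 0.0238 and 0.0169 CPM in the naive libraries (log2 fold change 5.34 ± 0.97 SE, adjusted p = 0.0131). Both MI libraries lay well above every naive library for either gene, and the MI libraries were within 2 times of each other. CLCF1, a further ligand of the family, had 4.24 and 2.69 CPM in the MI libraries, against 0.631, 0.572 and 0.237 CPM in the naive libraries (log2 fold change 2.85 ± 0.53 SE, adjusted p = 0.0132). LIF, leukaemia inhibitory factor, had 1.896 and 1.17 CPM in the MI libraries, against 0.252, 0.31 and 0.169 CPM in the naive libraries (log2 fold change 2.65 ± 0.76 SE, adjusted p = 0.0474). The groups did not overlap for these ligands, with MI replicate 1 the higher of its pair for both. IL6 had 0.932 and 0.745 CPM in the MI libraries, against 0.0126, 0.0238 and 0.0339 CPM in the naive libraries and was not called (adjusted p = 0.064).

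SOCS3, the inhibitor that gp130 signalling induces against itself, had 80.9 and 42.9 CPM in the MI libraries, against 6.88, 7.19 and 6.26 CPM in the naive libraries (log2 fold change 3.19 ± 0.61 SE, adjusted p = 0.0142). The naive libraries lay close together and both MI libraries far above them. The kinase genes PIM1 and PIM3 and the transcription factor gene CEBPD, known STAT3 targets, rose as well, with log2 fold changes of 1.49, 1.95 and 2.45 (adjusted p = 0.0289, 0.0235 and 0.0491). The shared chain IL6ST had 142 and 205 CPM in the MI libraries, against 189, 189 and 150.2 CPM in the naive libraries, and STAT3 had 106 and 93.1 CPM in the MI libraries, against 71.04, 55.8 and 68.6 CPM in the naive libraries. IL6ST overlapped between the groups, and STAT3 lay above naive in both MI libraries without a call (adjusted p = 0.0594). Of 17 tested genes of the list for this pathway, which holds none of the ligands, 5 were called higher and 0 lower, 11 lay above naive in both MI libraries, and the median log2 fold change was 0.61.

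CXCL2, which attracts neutrophils, was the chemokine with the smallest adjusted p. Its level was 55.1 and 55.8 CPM in the MI libraries, against 4.66, 4.26 and 5.05 CPM in the naive libraries (log2 fold change 3.57 ± 0.54 SE, adjusted p = 0.00702). The MI libraries were nearly equal, and no naive library came near them. The stretch of 250 bases upstream of its annotated start (RefSeq, Sscrofa11.1, chr8:70157003-70157252, plus strand) is printed here because a match to the NF-kB motif stands in it, and NF-kB genes are described below. The capitals mark a pair of overlapping matches that begin 112 and 111 bases before the start.
CXCL2: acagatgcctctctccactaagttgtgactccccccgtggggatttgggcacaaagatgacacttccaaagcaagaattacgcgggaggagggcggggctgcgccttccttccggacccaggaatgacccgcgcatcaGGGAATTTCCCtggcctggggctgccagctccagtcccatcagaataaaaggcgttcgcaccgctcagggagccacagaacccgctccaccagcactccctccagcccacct
The NF-kB motif, searched on both strands, matched in 11.2% of the 12632 stretches of this length read for tested genes, in 14.1% of those of genes called higher without overlap, in 8.33% of those of genes called lower, and in 7 of 22 chemokine ligand genes. A match is a description of the letters, not of binding, here and for the motifs below.

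The other chemokines were less even between the MI libraries. CCL2, which attracts monocytes, had 8.98 and 28.01 CPM in the MI libraries, against 4.91, 5.93 and 3.44 CPM in the naive libraries (log2 fold change 1.96 ± 0.56 SE, adjusted p = 0.0467). CXCL8, a neutrophil attractant, had 2.49 and 17.3 CPM in the MI libraries, against 0.177, 0.238 and 0.0677 CPM in the naive libraries (log2 fold change 5.95 ± 1.65 SE, adjusted p = 0.0425). AMCF-II, the pig alveolar macrophage chemotactic factor, had 0.855 and 11.1 CPM in the MI libraries and was listed at 0 in all 3 naive libraries. All 3 were highest in MI replicate 2 by at least 3 times over replicate 1, and none overlapped with naive. Of 22 tested chemokine ligands, 5 were called higher and 0 lower, 10 lay above naive, and the median was 2.36. Their summed level was 146 and 294 CPM in the MI libraries, against 74.7, 65.8 and 48.8 CPM in the naive libraries.

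Some genes by which venules take up leukocytes rose too. ACKR1, an atypical chemokine receptor of venular endothelium and red cells, had 6.95 and 8.89 CPM in the MI libraries, against 0.669, 0.762 and 0.643 CPM in the naive libraries (log2 fold change 3.52 ± 0.70 SE, adjusted p = 0.0159). ICAM1, which holds leukocytes to endothelium, had 41.3 and 33.8 CPM in the MI libraries, against 14.8, 10.7 and 9.04 CPM in the naive libraries (log2 fold change 1.70 ± 0.32 SE, adjusted p = 0.0141). Both genes were well apart between the groups, with the MI libraries close together. SELP, P-selectin, had 3.43 and 12.6 CPM in the MI libraries, against 1.25, 1.45 and 0.525 CPM in the naive libraries (log2 fold change 2.90 ± 0.74 SE, adjusted p = 0.0324). Of 11 adhesion genes tested, 2 were called, all higher. Of 15 general endothelium markers, 0 were called higher and 0 lower (edgeR, with 2 at an unadjusted p under 0.05, and 1 by DESeq2), and PECAM1 had 442 and 263 CPM in the MI libraries, against 364, 391 and 264 CPM in the naive libraries.

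Several NF-kB genes and feedback inhibitors were higher in MI hearts. NFKBIZ, an inducible nuclear cofactor of NF-kB, had 26.7 and 40.96 CPM in the MI libraries, against 3.86, 4.31 and 4.39 CPM in the naive libraries (log2 fold change 3.02 ± 0.68 SE, adjusted p = 0.0247). TNFAIP3 (A20), which shuts NF-kB signalling off, had 15.8 and 40.6 CPM in the MI libraries, against 8.63, 7.24 and 8.99 CPM in the naive libraries (log2 fold change 1.77 ± 0.32 SE, adjusted p = 0.012). Each was higher in both MI libraries than in any naive one, and more so in replicate 2. RELA, the main activating subunit, and BCL3, a nuclear regulator, rose by smaller steps, with log2 fold changes of 0.54 and 1.36 (adjusted p = 0.0349 and 0.0388). Among 26 tested cytokines and NF-kB feedback genes, 6 were called higher and 0 lower, with a median of 1.22. The list holds OSM and LIF, described above.

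Immediate early genes, the first to be transcribed after a stimulus, split by library. IER2 (ENSSSCG00000013753) had 13.8 and 15.3 CPM in the MI libraries, against 4.69, 3.26 and 3.95 CPM in the naive libraries (log2 fold change 1.87 ± 0.30 SE, adjusted p = 0.00702), and FOS had 137 and 187 CPM in the MI libraries, against 6.48, 2.001 and 32.8 CPM in the naive libraries (log2 fold change 3.56 ± 0.89 SE, adjusted p = 0.0312). IER2 was even within each group, while naive replicate 3 held 5 times or more the FOS level of the other naive libraries and still lay below both MI libraries. Stretches upstream of IER2 (chr2:65912492-65912741, minus strand) and of ACTG1 (chr12:1320105-1320354, plus strand) are printed because each holds a CArG box, the motif of serum response factor, in capitals. It begins 209 bases before the start of IER2 and 36 before that of ACTG1, where the E-box CACGTG, also in capitals, begins 87 bases before the start.
IER2: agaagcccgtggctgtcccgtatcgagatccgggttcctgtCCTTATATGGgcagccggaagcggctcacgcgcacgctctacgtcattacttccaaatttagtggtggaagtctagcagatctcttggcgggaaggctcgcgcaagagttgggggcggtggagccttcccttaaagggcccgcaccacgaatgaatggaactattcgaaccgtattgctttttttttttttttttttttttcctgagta
ACTG1: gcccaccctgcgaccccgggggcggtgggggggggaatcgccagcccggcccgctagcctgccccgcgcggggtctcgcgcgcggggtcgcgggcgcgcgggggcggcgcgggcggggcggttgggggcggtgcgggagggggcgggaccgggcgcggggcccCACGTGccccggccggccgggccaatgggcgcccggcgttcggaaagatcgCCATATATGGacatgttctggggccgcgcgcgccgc
A CArG box matched in 1.23% of all stretches read, 2.21% of those of genes called higher and 2.47% of those called lower. The E-box, which reads the same on both strands, matched in 7.41% of all stretches. ACTG1, cytoplasmic gamma actin, had 1475 and 1309.6 CPM in the MI libraries, against 610.3, 563 and 590.3 CPM in the naive libraries (log2 fold change 1.24 ± 0.24 SE, adjusted p = 0.0139). It was about equal in the MI libraries and about equal in the naive ones.

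KLF2 and KLF4, zinc finger factors that blood flow induces in endothelium, rose with log2 fold changes of 1.76 and 1.62 (adjusted p = 0.017 and 0.0189). MYC had 89.4 and 34.3 CPM in the MI libraries, against 14.8, 20.8 and 17.8 CPM in the naive libraries (log2 fold change 1.80 ± 0.43 SE, adjusted p = 0.0279), and NR4A1, an orphan nuclear receptor, had 583 and 135 CPM in the MI libraries, against 25.4, 34.8 and 37.9 CPM in the naive libraries (log2 fold change 3.46 ± 0.95 SE, adjusted p = 0.0421). Both were highest in MI replicate 1. Of 27 tested immediate early genes, 9 were called higher and 0 lower. The median difference was 1.81 for MI replicate 1 over naive replicates 1 and 3, and 0.14 for MI replicate 2 over naive replicate 2, on the log2 (CPM + 0.5) scale. Each MI library is set here beside the naive libraries like it in counts of ENSSSCG00000035520, so the comparators differ. The list mean on that scale was 5.70 and 4.87 in the MI libraries, against 4.07, 4.43 and 3.93 in the naive libraries.

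Genes that end such bursts rose more evenly. ZFP36 (tristetraprolin) and ZFP36L2 encode proteins that bind AU-rich messages and speed their decay. ZFP36 had 228 and 134 CPM in the MI libraries, against 36.4, 33.5 and 47.1 CPM in the naive libraries (log2 fold change 2.21 ± 0.35 SE, adjusted p = 0.00702). ZFP36L2 had 309 and 336 CPM in the MI libraries, against 132, 101 and 98.4 CPM in the naive libraries (log2 fold change 1.54 ± 0.22 SE, adjusted p = 0.00702). In both cases the lowest MI library held more than 2 times the highest naive one. DUSP1, a phosphatase that turns MAP kinases off, had 193 and 235 CPM in the MI libraries, against 64.9, 54.4 and 34.6 CPM in the naive libraries (log2 fold change 2.06 ± 0.40 SE, adjusted p = 0.0159), and BTG2, an antiproliferative gene, had 229 and 274 CPM in the MI libraries, against 78.6, 93.4 and 45.2 CPM in the naive libraries (log2 fold change 1.80 ± 0.42 SE, adjusted p = 0.0266). Again the MI libraries were close together and above all naive ones. Of 14 genes of message decay and growth arrest, 5 were called higher and 0 lower, and of 16 MAP kinase feedback genes, 4 and 0. ARID5A, whose protein is known in mice to shield IL6 message from decay, had 33.4 and 41.03 CPM in the MI libraries, against 9.297, 8.03 and 5.98 CPM in the naive libraries (log2 fold change 2.26 ± 0.36 SE, adjusted p = 0.00702).

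Single genes of other lists, and of none, rose as well, and UAP1, SAT1 and FTL among them were chosen after their values were seen. GFPT2, the first enzyme of the hexosamine pathway, had 255 and 105 CPM in the MI libraries, against 9.42, 7.88 and 4.06 CPM in the naive libraries (log2 fold change 4.66 ± 0.67 SE, adjusted p = 0.00702). UAP1, which makes UDP-N-acetylglucosamine at the end of that pathway, had 63.9 and 39.2 CPM in the MI libraries, against 19.96, 20.2 and 14.1 CPM in the naive libraries (log2 fold change 1.51 ± 0.26 SE, adjusted p = 0.012). Both genes were highest in MI replicate 1, and replicate 2 still lay above all naive libraries. PFKFB3, which makes the activator of phosphofructokinase, rose (log2 fold change 2.32 ± 0.39 SE, adjusted p = 0.0108), as did SAT1, the acetylating enzyme of polyamine breakdown (log2 fold change 2.29 ± 0.41 SE, adjusted p = 0.012). The ferritin light chain gene FTL had 164 and 309 CPM in the MI libraries, against 59.4, 90.2 and 39.5 CPM in the naive libraries (log2 fold change 1.91 ± 0.33 SE, adjusted p = 0.012). NPC2, which carries cholesterol out of lysosomes, had 51.6 and 115 CPM in the MI libraries, against 27.7, 24.8 and 25.6 CPM in the naive libraries (log2 fold change 1.67 ± 0.27 SE, adjusted p = 0.00702), and CSTB, a cathepsin inhibitor, had 81.9 and 89.7 CPM in the MI libraries, against 27.8, 21.3 and 27.6 CPM in the naive libraries (log2 fold change 1.74 ± 0.27 SE, adjusted p = 0.00702). CSTB was even in the MI libraries, while FTL and NPC2 were higher in replicate 2.

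ANPEP, aminopeptidase N, had 11.5 and 12.9 CPM in the MI libraries, against 0.795, 0.762 and 0.339 CPM in the naive libraries (log2 fold change 4.27 ± 0.63 SE, adjusted p = 0.00702). PLEKHO1, a pleckstrin homology protein, had 67.3 and 69.95 CPM in the MI libraries, against 23.04, 22.4 and 21.9 CPM in the naive libraries (log2 fold change 1.61 ± 0.25 SE, adjusted p = 0.00702). FXYD6, which modulates the sodium pump, had 228 and 169 CPM in the MI libraries, against 79.5, 69.9 and 86.9 CPM in the naive libraries (log2 fold change 1.33 ± 0.20 SE, adjusted p = 0.00702). For each, the 2 MI libraries agreed within 1.5 times and stood clear of the naive libraries. ID4 and ID2 encode proteins that block basic helix-loop-helix factors. ID4 had 31.2 and 23.3 CPM in the MI libraries, against 4.14, 3.93 and 5.72 CPM in the naive libraries (log2 fold change 2.57 ± 0.41 SE, adjusted p = 0.00702), and ID2 had 27.5 and 33.5 CPM in the MI libraries, against 8.93, 7.34 and 8.43 CPM in the naive libraries (log2 fold change 1.89 ± 0.36 SE, adjusted p = 0.0139). KCNQ5, a potassium channel subunit, rose as well (log2 fold change 2.52 ± 0.46 SE, adjusted p = 0.0131), and so did FGFR2, a fibroblast growth factor receptor, at 24.2 and 8.78 CPM in the MI libraries, against 0.631, 0.619 and 1.32 CPM in the naive libraries (log2 fold change 4.26 ± 0.75 SE, adjusted p = 0.012), and NKD1, an inhibitor of Wnt signalling (log2 fold change 2.88 ± 0.51 SE, adjusted p = 0.012). FGFR2 was highest in MI replicate 1 and NKD1 in replicate 2, without overlap. WDR86, a WD repeat gene, had 5.41 and 16.3 CPM in the MI libraries, against 1.01, 0.834 and 0.61 CPM in the naive libraries (log2 fold change 3.72 ± 0.59 SE, adjusted p = 0.00702).

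**Figure D2:**
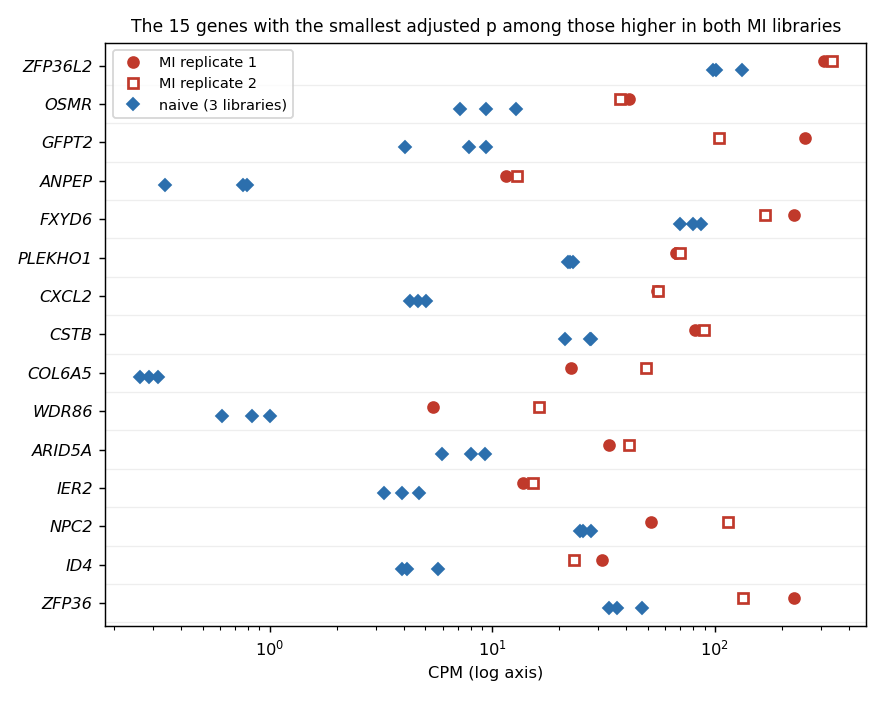
CPM on a log axis of the 15 genes with the smallest adjusted p among those called higher with both MI libraries above all naive ones. Red circles are MI replicate 1, open red squares MI replicate 2 and blue diamonds the 3 naive libraries. Red and blue do not overlap in any row, and COL6A5 has the widest gap, at 22.6 and 49.2 CPM in MI against 0.315, 0.262 and 0.288 CPM in naive libraries.

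Most complement genes were higher in both MI libraries than in naive ones. C1S and C1R encode the proteases that start the classical pathway. C1S had 230.5 and 491 CPM in the MI libraries, against 47.4, 30.2 and 17.1 CPM in the naive libraries (log2 fold change 3.51 ± 0.70 SE, adjusted p = 0.017). C1R had 225 and 792 CPM in the MI libraries, against 71.3, 45.2 and 21.5 CPM in the naive libraries (log2 fold change 3.47 ± 0.76 SE, adjusted p = 0.0223). C3, the component on which all pathways meet, had 163 and 2736 CPM in the MI libraries, against 46.4, 34.1 and 19.5 CPM in the naive libraries (log2 fold change 5.44 ± 1.30 SE, adjusted p = 0.0288). In each, both MI libraries exceeded every naive one, and C3 differed by more than 10 times between the MI libraries. The inhibitor SERPING1, at 269.6 and 580.2 CPM in the MI libraries, against 108, 81.3 and 71.7 CPM in the naive libraries, rose as well (log2 fold change 2.29 ± 0.54 SE, adjusted p = 0.0269). CFP, properdin, rose with 3.65 and 68.02 CPM in the MI libraries (log2 fold change 4.72 ± 0.83 SE, adjusted p = 0.012). Of 15 tested complement genes, 8 were called higher and 0 lower, 12 lay above naive, and the median log2 fold change was 3.35.

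Macrophage genes moved mainly in MI replicate 2. LYVE1, carried by resident heart macrophages and lymphatic endothelium, had 41.9 and 61.5 CPM in the MI libraries, against 11.04, 18.7 and 7.11 CPM in the naive libraries (log2 fold change 2.07 ± 0.40 SE, adjusted p = 0.0154). CD14, a co-receptor for bacterial lipopolysaccharide, had 22.3 and 60.04 CPM in the MI libraries, against 8.57, 8.57 and 4.301 CPM in the naive libraries (log2 fold change 2.53 ± 0.51 SE, adjusted p = 0.018). MERTK, a receptor for the uptake of dead cells, had 9.43 and 26.1 CPM in the MI libraries, against 5.36, 4.33 and 1.51 CPM in the naive libraries (log2 fold change 2.25 ± 0.48 SE, adjusted p = 0.0204). In these genes both MI libraries lay above naive, replicate 2 more so. Of 19 resident macrophage markers, 11 were called higher and 0 lower, yet only 6 lay above naive in both MI libraries and 10 were high in replicate 2 only. CD163, a scavenger receptor, had 82.2 and 798 CPM in the MI libraries, against 71.5, 83.6 and 13.4 CPM in the naive libraries, and C1QA had 38.7 and 618 CPM in the MI libraries, against 50.8, 49.6 and 7.48 CPM in the naive libraries. MI replicate 1 lay below naive replicate 2 for both, and naive replicate 3 was the lowest library. The summed level of the list was 481 and 4413 CPM in the MI libraries, against 507, 535 and 123 CPM in the naive libraries. The part of this in the chemokine, complement and lysosome results was not tested.

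Markers of macrophages in scars and lipid-laden tissue had 7 of 13 called higher and 8 above naive in both MI libraries. TREM2, a lipid receptor, had 1.83 and 14.7 CPM in the MI libraries, against 1.26, 0.786 and 0.271 CPM in the naive libraries (log2 fold change 3.41 ± 0.72 SE, adjusted p = 0.0195). APOE, a lipid carrier, had 81 and 305 CPM in the MI libraries, against 17.8, 3.67 and 8.398 CPM in the naive libraries (log2 fold change 4.27 ± 0.96 SE, adjusted p = 0.0243). Replicate 2 was again the higher, with replicate 1 above naive in both. In the monocyte and neutrophil list, 9 of 10 tested genes lay above naive and 3 were called higher, at summed levels of 24.1 and 92.2 CPM in the MI libraries and 9.02, 7.64 and 6.43 CPM in the naive ones. Cathepsins and partners had 6 of 15 called higher and 0 lower. CTSH had 59.3 and 282 CPM in the MI libraries, against 33.8, 24.6 and 18.6 CPM in the naive libraries (log2 fold change 2.73 ± 0.58 SE, adjusted p = 0.0204).

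Prostaglandin genes went both ways. PTGS2, the inducible cyclooxygenase, had 4.51 and 5.43 CPM in the MI libraries, against 0.139, 0.238 and 0.745 CPM in the naive libraries (log2 fold change 3.73 ± 0.79 SE, adjusted p = 0.0204). PTGES2, a prostaglandin E synthase, had 21.2 and 25.9 CPM in the MI libraries, against 61.4, 70.3 and 66.8 CPM in the naive libraries (log2 fold change -1.49 ± 0.29 SE, adjusted p = 0.0159). PTGER4, a receptor of prostaglandin E2, had 18.8 and 23.6 CPM in the MI libraries, against 5.17, 4.24 and 6.45 CPM in the naive libraries (log2 fold change 2.0003 ± 0.57 SE, adjusted p = 0.0457). The groups did not overlap for any of the 3, with PTGES2 lower and the others higher in MI. The list had 6 called higher and 2 lower of 21. Among the higher were PTGES and TBXAS1, which overlapped with naive and were high in MI replicate 2 only. PTGER3 was called lower beside PTGES2. In the plasminogen system, which dissolves fibrin, the activator genes PLAT and PLAU and the urokinase receptor gene PLAUR rose, with log2 fold changes of 1.41, 1.69 and 2.11 (adjusted p = 0.0182, 0.0255 and 0.0125). PLAUR had 8.61 and 13.9 CPM in the MI libraries, against 3.24, 2.14 and 2.42 CPM in the naive libraries, without overlap.

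Of 26 collagen chains tested, 1 was called higher and 1 lower, together close to the 6.86% called over all genes. COL6A5, a chain of collagen VI, had 22.6 and 49.2 CPM in the MI libraries, against 0.315, 0.262 and 0.288 CPM in the naive libraries (log2 fold change 6.94 ± 1.06 SE, adjusted p = 0.00702). COL4A5, a basement membrane chain, had 17.7 and 35.5 CPM in the MI libraries, against 303, 96.05 and 149.7 CPM in the naive libraries (log2 fold change -2.78 ± 0.69 SE, adjusted p = 0.0308). Both MI libraries were far above every naive library for COL6A5 and below every one for COL4A5. The fibrillar chain COL1A1 had 399.9 and 6435 CPM in the MI libraries, against 1371, 669 and 1062 CPM in the naive libraries, and POSTN, a matricellular protein of scars, had 26.2 and 601 CPM in the MI libraries, against 122, 27.8 and 70.9 CPM in the naive libraries. For both, MI replicate 1 was the lowest and replicate 2 the highest of the 5 libraries, and neither was called (adjusted p = 0.209 and 0.204). WT1, a marker of epicardium and its fibroblast progeny, had 18.9 and 50.6 CPM in the MI libraries, against 4.48, 5.17 and 5.66 CPM in the naive libraries (log2 fold change 2.77 ± 0.68 SE, adjusted p = 0.0308). TCF21, a fibroblast factor, had 31.2 and 57.7 CPM in the MI libraries, against 16.8, 13 and 17.2 CPM in the naive libraries (log2 fold change 1.51 ± 0.36 SE, adjusted p = 0.0289). Of 13 fibroblast markers tested, 3 were called higher and 0 lower, and 5 lay above naive. Their list mean was 4.43 and 6.37 in MI libraries, against 4.84, 4.61 and 4.02 in naive ones. On this log2 scale, that of the immediate early list, only MI replicate 2 lay above naive. Summed, they had 1479 and 2313 CPM in MI and 976, 1105 and 698 CPM in naive libraries. Of 10 epicardial and mesothelial markers, 1 was called higher, 0 lower, and 6 lay above naive.

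Several enzymes that cut matrix were higher. MMP14, a membrane-bound collagenase, had 151 and 454 CPM in the MI libraries, against 93.4, 75.4 and 56.9 CPM in the naive libraries (log2 fold change 2.01 ± 0.41 SE, adjusted p = 0.0188). MMP2, the gelatinase that MMP14 activates, had 439.8 and 996 CPM in the MI libraries, against 238, 237 and 155 CPM in the naive libraries (log2 fold change 1.77 ± 0.46 SE, adjusted p = 0.0351). ADAMTS5, which cuts proteoglycans, had 73.4 and 53.5 CPM in the MI libraries, against 24.8, 11.5 and 14.1 CPM in the naive libraries (log2 fold change 1.92 ± 0.47 SE, adjusted p = 0.0307). All 3 stood above naive in both MI libraries, which were within 1.5 times of each other for ADAMTS5. The inhibitor TIMP1 had 101 and 184 CPM in the MI libraries, against 20.5, 14.5 and 22.1 CPM in the naive libraries (log2 fold change 2.90 ± 0.77 SE, adjusted p = 0.0374), while MMP15 had 29.2 and 53.01 CPM in the MI libraries, against 162, 127 and 201 CPM in the naive libraries (log2 fold change -1.99 ± 0.41 SE, adjusted p = 0.0189). The whole list had 7 called higher and 1 lower of 24. TGFB1, the ligand that drives scar formation, had 65.3 and 83.4 CPM in the MI libraries, against 46.1, 45.96 and 31.6 CPM in the naive libraries (log2 fold change 0.85 ± 0.22 SE, adjusted p = 0.0319). The inhibitory SMAD genes SMAD6 and SMAD7 also rose, with log2 fold changes of 0.90 and 1.22 (adjusted p = 0.0391 and 0.0369). Of 23 TGF beta and activin genes, 7 were called higher and 0 lower, with a median of 0.27.

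Smooth muscle genes had 5 of 12 called higher and 0 lower, and 8 lay above naive in both MI libraries. Their list mean was 6.51 and 5.38 in MI libraries, against 4.93, 4.95 and 5.13 in naive ones, on the log2 scale used above. Summed, they had 3898 and 1904 CPM in MI and 1960, 3326 and 3886 CPM in naive libraries. The sums overlapped between the groups, and MI replicate 2 was the lowest library. The median log2 fold change was 0.60 without MI replicate 1 and 1.51 without MI replicate 2. ACTA2, smooth muscle actin, had 549 and 144 CPM in the MI libraries, against 104, 95.2 and 107 CPM in the naive libraries (log2 fold change 1.77 ± 0.44 SE, adjusted p = 0.0308). MYLK, myosin light chain kinase, had 71.9 and 63.96 CPM in the MI libraries, against 39.5, 27.5 and 34.5 CPM in the naive libraries (log2 fold change 1.01 ± 0.26 SE, adjusted p = 0.0356). ACTA2 was carried mainly by MI replicate 1, while MYLK was even. Pericyte markers gave 0 calls in either direction of 7 (edgeR, with 2 at an unadjusted p under 0.05, and 0 by DESeq2).

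The genes that fell were more even between the MI libraries: of the 366, 345 had MI libraries within 2 times of each other, against 320 of the 580 that rose without overlap. HR, the hairless corepressor of nuclear receptors, had 1.57 and 1.405 CPM in the MI libraries, against 12.8, 12.6 and 22.4 CPM in the naive libraries (log2 fold change -3.42 ± 0.54 SE, adjusted p = 0.00702). FGF16, a growth factor of heart muscle, had 0.218 and 0.559 CPM in the MI libraries, against 3.76, 3.55 and 3.74 CPM in the naive libraries (log2 fold change -3.24 ± 0.57 SE, adjusted p = 0.012). ENTPD6, which hydrolyses nucleoside diphosphates, had 18.5 and 20.3 CPM in the MI libraries, against 53.7, 79.9 and 54.5 CPM in the naive libraries (log2 fold change -1.69 ± 0.24 SE, adjusted p = 0.00702). All MI values were below all naive ones, and for HR and FGF16 the highest MI library held less than 0.2 times the lowest naive one. ANKRD6, a Wnt pathway protein, had 10.4 and 15.3 CPM in the MI libraries, against 38.4, 33.8 and 44.8 CPM in the naive libraries (log2 fold change -1.60 ± 0.26 SE, adjusted p = 0.00702). ACY1, an aminoacylase, had 23.5 and 28.4 CPM in the MI libraries, against 66.9, 66.4 and 85.9 CPM in the naive libraries (log2 fold change -1.50 ± 0.26 SE, adjusted p = 0.012). SORL1, a sorting receptor, had 10.3 and 20.5 CPM in the MI libraries, against 65.03, 41.7 and 78.5 CPM in the naive libraries (log2 fold change -2.01 ± 0.37 SE, adjusted p = 0.0132). MI replicate 1 was the lowest library for all 3. Among the other genes with the smallest adjusted p, TMEM177, TRMT9B, CC2D1B, PPFIA4, C5orf63 and TDRKH had log2 fold changes of -1.87, -1.76, -1.01, -1.37, -1.31 and -1.77 (adjusted p = 0.012 to 0.0137).

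**Figure D3:**
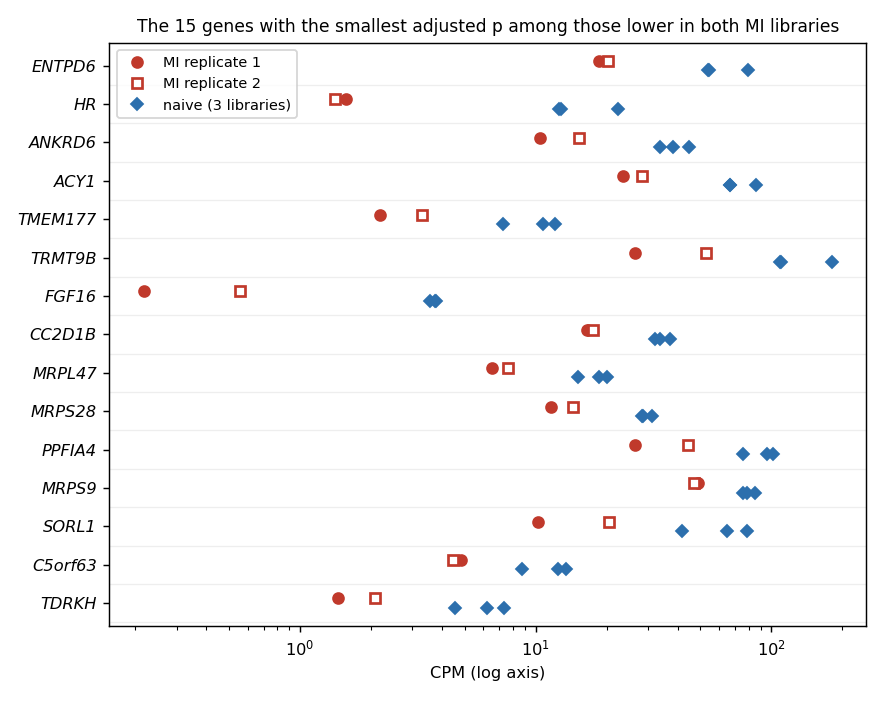
CPM on a log axis of the 15 genes with the smallest adjusted p among those called lower with both MI libraries below all naive ones, drawn as in the plot of higher genes. The red MI symbols lie left of the blue naive diamonds in every row, and the MI pair lies close together for most genes, as for MRPS9 at 48.7 and 47.02 CPM in MI against 76.1, 84.9 and 78.8 CPM in naive libraries.

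Of these 15 genes, 3 encode proteins of the mitochondrial ribosome, which makes the proteins of the mitochondrial genome. MRPL47 (ENSSSCG00000011763) had 6.54 and 7.6 CPM in the MI libraries, against 20.05, 18.5 and 15.1 CPM in the naive libraries (log2 fold change -1.34 ± 0.24 SE, adjusted p = 0.012). MRPS28 had 11.6 and 14.4 CPM in the MI libraries, against 28.3, 28.6 and 31.1 CPM in the naive libraries (log2 fold change -1.17 ± 0.21 SE, adjusted p = 0.0126). MRPS9 had 48.7 and 47.02 CPM in the MI libraries, against 76.1, 84.9 and 78.8 CPM in the naive libraries (log2 fold change -0.74 ± 0.14 SE, adjusted p = 0.0131). The MI libraries were close together in each and below all naive libraries. Taken by their symbols after these values were seen, 7 of 67 mitochondrial ribosomal protein genes were called lower and 0 higher, 36 lay below naive in both MI libraries and 1 above, and the median log2 fold change was -0.42. Of 17 genes for mitochondrial tRNA synthetases, 4 were called lower and 13 lay below. One of them, LARS2, had 18.3 and 22.3 CPM in the MI libraries, against 43.9, 43.1 and 58.8 CPM in the naive libraries (log2 fold change -1.26 ± 0.24 SE, adjusted p = 0.0139). Among genes for ribosomal proteins of the cytosol, 5 of 62 were called higher and 0 lower, with a median of 0.66.

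Some nuclear genes of energy metabolism fell. In the citric acid cycle and pyruvate list, 5 of 25 were called lower and 0 higher, 19 lay below naive in both MI libraries, and the median was -0.87. MDH1, cytosolic malate dehydrogenase, had 411 and 385 CPM in the MI libraries, against 1182, 981 and 1483 CPM in the naive libraries (log2 fold change -1.61 ± 0.37 SE, adjusted p = 0.0252). DLAT, a pyruvate dehydrogenase subunit, had 135 and 142 CPM in the MI libraries, against 316, 326 and 354 CPM in the naive libraries (log2 fold change -1.26 ± 0.31 SE, adjusted p = 0.0294). GOT2, which works with malate dehydrogenases in the malate-aspartate shuttle, had 302 and 278 CPM in the MI libraries, against 706, 834 and 812 CPM in the naive libraries (log2 fold change -1.44 ± 0.32 SE, adjusted p = 0.0244). Each MI library held less than 0.5 times the lowest naive level of the gene. In the fatty acid list, 5 of 28 were called lower and 0 higher, and 17 lay below. ACADM, medium-chain acyl-CoA dehydrogenase, had 188 and 157 CPM in the MI libraries, against 372, 439 and 355 CPM in the naive libraries (log2 fold change -1.17 ± 0.26 SE, adjusted p = 0.0229). MLYCD, which removes malonyl-CoA, the inhibitor of fatty acid entry into mitochondria, had 7.92 and 22.8 CPM in the MI libraries, against 65.6, 74.6 and 49.8 CPM in the naive libraries (log2 fold change -2.04 ± 0.48 SE, adjusted p = 0.0278). FABP3, the fatty acid binding protein of heart muscle, had 293 and 289 CPM in the MI libraries, against 524, 702 and 627 CPM in the naive libraries (log2 fold change -1.09 ± 0.31 SE, adjusted p = 0.0456). MLYCD was lowest in MI replicate 1, and the others were about even.

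Of 33 nuclear genes of respiratory complex I, 4 were called lower and 0 higher, 21 lay below naive, and the median was -0.58. NDUFA5 had 136 and 101 CPM in the MI libraries, against 226, 210.0 and 278 CPM in the naive libraries (log2 fold change -1.01 ± 0.25 SE, adjusted p = 0.0308). For complexes II to V, 1 of 32 was called lower, ATP5F1A, the alpha subunit of ATP synthase (log2 fold change -1.21 ± 0.31 SE, adjusted p = 0.0347). The 13 mitochondrially encoded genes gave 0 calls in either direction (edgeR, with 0 at an unadjusted p under 0.05, and 0 by DESeq2), and the groups overlapped for all of them. COX1, for example, had 154878 and 46748 CPM in the MI libraries, against 46731, 103560.0 and 46297 CPM in the naive libraries, so that MI replicate 1 and naive replicate 2 were the high libraries. Sugar use was mixed: HK1, a hexokinase, had 234 and 244 CPM in the MI libraries, against 589.8, 499.8 and 693 CPM in the naive libraries (log2 fold change -1.31 ± 0.31 SE, adjusted p = 0.0266), while PFKFB3 rose. Of 30 glycolysis and glycogen genes, 4 were called lower and 1 higher.

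Some genes of muscle calcium handling and structure fell. Of 7 creatine phosphate genes tested, 1 was called lower, CKMT2, and 1 higher, GATM. CASQ2 encodes calsequestrin, which stores calcium in the sarcoplasmic reticulum, and CKMT2 encodes mitochondrial creatine kinase, which passes energy from ATP to creatine. CASQ2 (ENSSSCG00000006745) had 161 and 152 CPM in the MI libraries, against 489, 487 and 539 CPM in the naive libraries (log2 fold change -1.69 ± 0.46 SE, adjusted p = 0.0392). CKMT2 (ENSSSCG00000014128) had 513 and 510.0 CPM in the MI libraries, against 1271, 2164 and 1734 CPM in the naive libraries (log2 fold change -1.75 ± 0.44 SE, adjusted p = 0.0312). The MI libraries were nearly equal for both and below 0.5 times every naive library. Their upstream stretches (chr4:104917954-104918203 and chr2:89796220-89796469, both on the plus strand) are printed because each holds a match to the motif of MEF2, a muscle transcription factor, in capitals. The match begins 19 bases before the start of CASQ2 and 35 before that of CKMT2, and an E-box, also in capitals, begins 182 bases before the start of CKMT2.
CASQ2: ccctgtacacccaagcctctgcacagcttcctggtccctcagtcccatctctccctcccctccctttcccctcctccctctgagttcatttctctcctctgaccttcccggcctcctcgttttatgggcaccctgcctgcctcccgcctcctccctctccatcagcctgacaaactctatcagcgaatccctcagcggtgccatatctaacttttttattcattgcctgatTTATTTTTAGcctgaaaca
CKMT2: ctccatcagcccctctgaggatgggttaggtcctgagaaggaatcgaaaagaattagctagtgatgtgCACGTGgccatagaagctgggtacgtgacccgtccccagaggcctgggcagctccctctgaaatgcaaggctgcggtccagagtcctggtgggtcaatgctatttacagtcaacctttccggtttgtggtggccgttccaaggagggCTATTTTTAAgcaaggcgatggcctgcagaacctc
The MEF2 motif matched in 2% of all stretches read, 1.2% of those of genes called higher and 4.01% of those called lower (13 genes).

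CSRP3, a muscle LIM protein of the Z disc, had 138 and 251 CPM in the MI libraries, against 594, 522 and 733 CPM in the naive libraries (log2 fold change -1.67 ± 0.33 SE, adjusted p = 0.017). ACTC1, cardiac actin, had 2646 and 5246 CPM in the MI libraries, against 10458, 9411 and 13135 CPM in the naive libraries (log2 fold change -1.48 ± 0.37 SE, adjusted p = 0.0315). MYL2, ventricular myosin light chain, had 3545 and 5879 CPM in the MI libraries, against 11513, 13495 and 9573 CPM in the naive libraries (log2 fold change -1.29 ± 0.35 SE, adjusted p = 0.0409). These genes of heart muscle were well detected in all 5 libraries, and lower in both MI libraries than in any naive one. Called lower were 2 of 10 thick filament genes, 1 of 9 thin filament genes, 2 of 15 Z disc genes and 2 of 17 calcium handling genes, and none in these lists was called higher. The summed level of the thick filament list was 42847 and 31798 CPM in the MI libraries, against 61999, 75499.5 and 66594 CPM in the naive libraries. The part of this in the metabolic results was not tested.

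SGCD, SLMAP, TRIM55 and DNM1L, chosen after their values were seen, fell. SGCD, a sarcoglycan of the cell membrane, had 21.6 and 19.9 CPM in the MI libraries, against 62.4, 52.3 and 51.1 CPM in the naive libraries (log2 fold change -1.41 ± 0.27 SE, adjusted p = 0.0139), and SLMAP, a membrane-associated protein, had 193 and 246 CPM in the MI libraries, against 572, 754 and 527 CPM in the naive libraries (log2 fold change -1.49 ± 0.30 SE, adjusted p = 0.018). TRIM55, a ubiquitin ligase of the sarcomere, had 99.2 and 108 CPM in the MI libraries, against 242, 229 and 269 CPM in the naive libraries (log2 fold change -1.25 ± 0.26 SE, adjusted p = 0.0195). DNM1L, which divides mitochondria, had 29.3 and 33.3 CPM in the MI libraries, against 67.6, 57.3 and 101 CPM in the naive libraries (log2 fold change -1.26 ± 0.28 SE, adjusted p = 0.0218). None of the 4 overlapped between the groups. Of 24 cardiac transcription factors, 2 were called, both lower. TEAD1, the DNA-binding partner of YAP, had 22.98 and 21.1 CPM in the MI libraries, against 63.9, 66.5 and 62.3 CPM in the naive libraries (log2 fold change -1.54 ± 0.39 SE, adjusted p = 0.0329). HAND1 had 8.25 and 19.2 CPM in the MI libraries, against 31.8, 41.4 and 42.1 CPM in the naive libraries (log2 fold change -1.49 ± 0.34 SE, adjusted p = 0.026). TEAD1 was even in each group. The chaperones CRYAB, a small heat shock protein, and HSPD1, of the mitochondrial matrix, fell with log2 fold changes of -1.22 and -1.16 (adjusted p = 0.0324 and 0.0329).

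Cell cycle genes had few calls, and many of G2 and mitosis lay low in the MI libraries, mostly in replicate 1. CCND1, a cyclin of G1, had 44.4 and 77.2 CPM in the MI libraries, against 134, 191 and 106 CPM in the naive libraries (log2 fold change -1.24 ± 0.34 SE, adjusted p = 0.0421). CDK6, a kinase that it activates, had 9.59 and 9.34 CPM in the MI libraries, against 26.7, 27.7 and 25.8 CPM in the naive libraries (log2 fold change -1.50 ± 0.41 SE, adjusted p = 0.042). Both were below naive in both MI libraries, and CDK6 was even in each group. CCND3, another cyclin of G1, had 64.1 and 36.5 CPM in the MI libraries, against 32.3, 25.4 and 21.7 CPM in the naive libraries (log2 fold change 0.93 ± 0.24 SE, adjusted p = 0.035). Of 31 genes of G2 and mitosis, 21 lay below naive in both MI libraries, with a median of -1.42, and 0 were called (edgeR, with 3 at an unadjusted p under 0.05, and 1 by DESeq2). CDK1, the kinase of mitotic entry, had 1.51 and 3.44 CPM in the MI libraries, against 13.6, 10.1 and 4.74 CPM in the naive libraries, and TOP2A had 4.801 and 27.6 CPM in the MI libraries, against 45.2, 38.3 and 25.3 CPM in the naive libraries. The naive libraries varied by more than 1.5 times in both, and TOP2A in MI replicate 2 was within their range. Of 29 genes of S phase, 0 were called, with 3 at an unadjusted p under 0.05 and 0 by DESeq2. In this list 9 genes lay below naive in both MI libraries and 1 above. The list mean of log2 (CPM + 0.5) was 2.32 and 3.03 in the MI libraries, against 3.46, 3.03 and 3.81 in the naive libraries. For G2 and mitosis it was 1.78 and 3.00, against 3.87, 3.88 and 3.12. MI replicate 1 was the lowest library for both lists.

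A separate set of genes was high in 1 MI library only, by at least 4 times over the highest naive library on the CPM + 0.5 scale, at 5 CPM or more, with the other MI library not above the highest naive one. MI replicate 2 had 213 such genes (1.39% of tested genes), 168 of them with a symbol, and MI replicate 1 had 33 (0.215%). These are descriptions of single libraries with no replicate check, although 83 and 11 of them passed the test, which averages the pair. The named genes are those with the largest folds.

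In MI replicate 2 they included genes of macrophages and B cells. DUOX2, which makes hydrogen peroxide, had 0.249 and 45.9 CPM in the MI libraries, against 0.593, 0.286 and 0.203 CPM in the naive libraries, and its maturation factor DUOXA1 had 0.186 and 12.6 CPM in the MI libraries, against 0.24, 0.333 and 0.406 CPM in the naive libraries. MARCO, a macrophage scavenger receptor, had 0.435 and 36.4 CPM in the MI libraries, against 0.202, 0.119 and 0.643 CPM in the naive libraries. TLR8, a receptor for RNA in endosomes, had 0.87 and 33.1 CPM in the MI libraries, against 1.05, 0.572 and 0.169 CPM in the naive libraries. In all 4, replicate 1 was not above the highest naive library. Some genes known from B cells followed the same pattern. CD72 had 0.373 and 29.4 CPM in the MI libraries, against 0.328, 0.381 and 0.152 CPM in the naive libraries, CD22 had 0.699 and 27.9 CPM in the MI libraries, against 0.845, 1.57 and 0.152 CPM in the naive libraries, and JCHAIN, the joining chain of secreted antibodies, had 2.63 and 67.6 CPM in the MI libraries, against 4.13, 2.71 and 1.35 CPM in the naive libraries. Other B cell markers of the lymphocyte list did not meet the rule: MS4A1 had 0 and 1.17 CPM in the MI libraries, against 0.126, 0.238 and 0 CPM in the naive libraries, with overlap between the groups, as for CD79B and POU2AF1, and CD79A, which lay above naive in both MI libraries, had 3.56 and 3.64 CPM in the MI libraries, against 1.4, 1.98 and 1.68 CPM in the naive libraries. CD4, the co-receptor of helper T cells, had 1.103 and 43.9 CPM in the MI libraries, against 2.83, 1.98 and 1.61 CPM in the naive libraries. The T cell markers CD3D, CD3E, CD3G, CD2, CD5 and CD8A did not meet the rule, with overlap between the groups and no call. CD8B lay above naive in both MI libraries without a call. CD248 and ADAM12, known from activated fibroblasts, were also high in MI replicate 2 only. CD248 had 8.05 and 108 CPM in the MI libraries, against 7.08, 6.097 and 8.13 CPM in the naive libraries, and ADAM12 had 8.65 and 123 CPM in the MI libraries, against 7.54, 4.48 and 9.01 CPM in the naive libraries. Lists of macrophage markers held 11 genes high in this library only, and lists of leukocyte adhesion, chemokine ligand and lymphocyte genes held 3, 3 and 3. In the lymphocyte list the summed level was 18.1 and 186 CPM in the MI libraries, against 25.03, 19.8 and 7.11 CPM in the naive libraries.

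In MI replicate 1 they included genes of fat and of the stress response. ADIPOQ, adiponectin, a hormone of fat cells, had 116 and 0.0339 CPM in the MI libraries, against 0.0757, 0 and 0.0169 CPM in the naive libraries, and PLIN1, which coats fat droplets, had 5.27 and 0.118 CPM in the MI libraries, against 0.202, 0 and 0.152 CPM in the naive libraries. Replicate 2 and the naive libraries were near 0 for both. Of 15 adipocyte markers tested, only these 2 met the rule. CIDEA and CIDEC lay above naive in both MI libraries and were called higher. PLIN4, FABP4, LIPE, GPD1, DGAT2, SCD, FASN and THRSP overlapped between the groups, and ACACA lay below naive in both MI libraries, none of them called. ADAMTS4, which cuts proteoglycans, had 125 and 4.71 CPM in the MI libraries, against 2.65, 1.41 and 4.72 CPM in the naive libraries, and STC1, stanniocalcin, had 162 and 3.81 CPM in the MI libraries, against 12.3, 8.07 and 9.35 CPM in the naive libraries. MAFF, SIK1 and NR4A3 are immediate early genes. MAFF had 168 and 9.51 CPM in the MI libraries, against 9.81, 8.597 and 6.28 CPM in the naive libraries, SIK1 had 315 and 29.2 CPM in the MI libraries, against 17.03, 37.01 and 25.5 CPM in the naive libraries, and NR4A3 had 493 and 11.8 CPM in the MI libraries, against 7.03, 39.96 and 11.7 CPM in the naive libraries. Replicate 2 was at naive levels in each, and naive replicate 2 held the most NR4A3 of its group. GFAP and CHL1, known from glia, were high there as well, at 10.4 and 37.3 CPM in MI replicate 1. Summed over the adipocyte markers, the levels were 1228 and 454 CPM in the MI libraries and 505, 545 and 377 CPM in the naive ones, and the part of fat tissue in the other results of this library was not tested. The opposite case, genes low in 1 MI library only by the same fold, held 16 genes in replicate 1 and 0 in replicate 2. NREP, a regeneration-associated neuronal protein gene, was low in replicate 1, at 51.6 and 1104 CPM in the MI libraries, against 1586, 473 and 2334 CPM in the naive libraries.

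**Figure D4:**
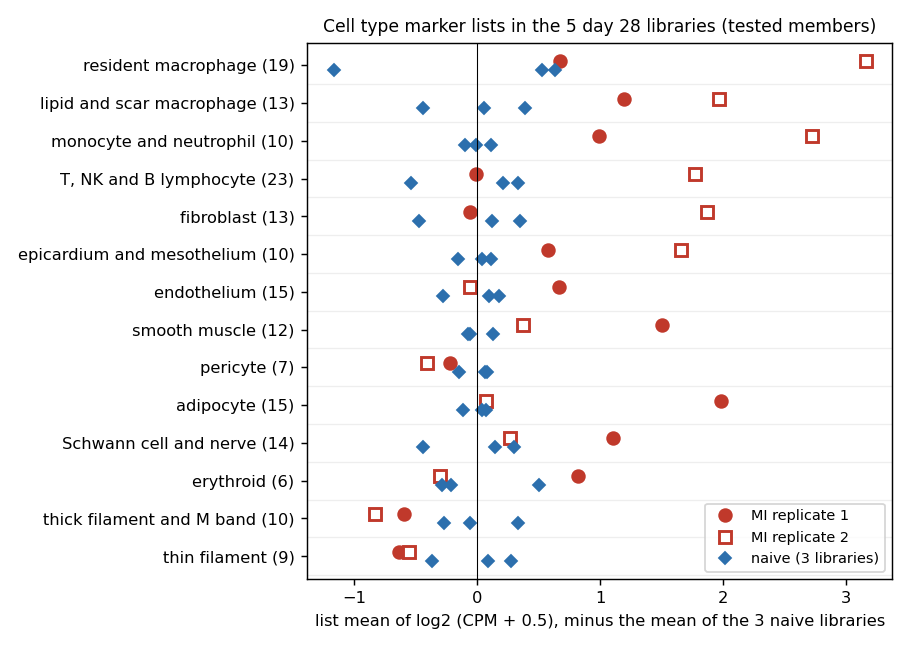
Mean log2 (CPM + 0.5) of each marker list in the 5 libraries, minus the mean of the naive libraries, with the number of tested markers in brackets. Red circles are MI replicate 1, open red squares MI replicate 2, and blue diamonds the naive libraries. MI replicate 2 is far right for the macrophage, monocyte and lymphocyte lists, MI replicate 1 is the rightmost for adipocyte and Schwann cell lists, and both are left of the naive libraries for the thick filament list.

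Several pathways gave no call in either direction. Of 20 interferon response genes 0 were called (edgeR, with 2 at an unadjusted p under 0.05, and 0 by DESeq2), and IFIT1 had 66.04 and 42.1 CPM in the MI libraries, against 43.3, 54.8 and 13.6 CPM in the naive libraries. Of 7 natriuretic peptide and receptor genes 0 were called (1 at an unadjusted p under 0.05, 0 by DESeq2). NPPA, the atrial peptide and a marker of stressed ventricle, had 1.52 and 70.6 CPM in the MI libraries, against 52, 31.9 and 375 CPM in the naive libraries, and NPPB had 4.65 and 42.03 CPM in the MI libraries, against 40.5, 4.19 and 56.9 CPM in the naive libraries. MI replicate 1 was the lowest library for NPPA, and the groups overlapped for both. MHC class II genes (6 tested), intercalated disc genes (14), regulators of metabolism (16), clock genes (18) and red cell genes (6) also gave no call by edgeR, with 5, 5, 4, 2 and 0 at an unadjusted p under 0.05 and 4, 1, 3, 1 and 0 by DESeq2.

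The same genes were then read in the younger pigs, 3 MI and 3 naive libraries each on days 7 and 14. On day 7, edgeR called 0 genes between MI and naive hearts (0% of tested genes, with 1905 at an unadjusted p under 0.05, and 263 by DESeq2). On day 14 it called 0 (0%, with 821 at an unadjusted p under 0.05, and 14 by DESeq2). The difference between the MI effects of day 28 and day 14 was called for 0 genes (0%, edgeR, with 1781 at an unadjusted p under 0.05, and 33 by DESeq2), and that between day 28 and day 7 for 2 (0.013%). Genes called higher on day 28 had a median log2 fold change of 0.02 on day 7, 0.38 on day 14 and 2.2 on day 28. For genes called lower, the medians were -0.22, -0.24 and -1.12 in the same order. The day 28 values are those by which the genes were chosen.

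ANPEP was called for the change in its MI effect between day 7 and day 28 (5.47 ± 0.83 SE on the log2 scale, adjusted p = 0.0372). On day 7 it had 0.86, 0.381 and 0.99 CPM in MI hearts, against 1.97, 2.45 and 0.685 CPM in naive hearts. On day 14 it had 2.89, 6.09 and 1.28 CPM in MI hearts, against 1.38, 1.12 and 1.102 CPM in naive hearts. The MI values of day 7 were not above the naive range, and those of day 14 overlapped it at its upper end. COL6A5 already lay high on day 14, at 3.87, 19.7 and 3.12 CPM in MI hearts, against 0.386, 0.413 and 0.607 CPM in naive hearts. GFPT2 on day 14 had 10.9, 67.2 and 20.05 CPM in MI hearts, against 10.7, 7.98 and 6.004 CPM in naive hearts, and CXCL2 had 3.61, 15.9 and 6.57 CPM, against 5.09, 5.54 and 5.42 CPM. MI replicate 2 of day 14 was the highest library in each, and the groups overlapped for CXCL2 only. The log2 fold changes of these 3 genes on day 14 were 4.25, 1.99 and 0.70, none of them called. On day 7 CXCL2 had 6.35, 6.63 and 23.8 CPM in MI hearts, against 3.002, 2.82 and 3.23 CPM in naive hearts. These groups did not overlap, without a call, while those of COL6A5 and GFPT2 overlapped on day 7. Among the lower genes, ENTPD6 on day 14 had 33.9, 28.7 and 27.9 CPM in MI hearts, against 40.8, 66.3 and 56 CPM in naive hearts, and HR had 7.83, 2.22 and 3.67 CPM, against 8.41, 15.7 and 15.3 CPM. The groups did not overlap on day 14 for either of them. FGF16 on day 14 had 1.72, 0.579 and 0.942 CPM in MI hearts, against 1.67, 3.64 and 2.204 CPM in naive hearts, and here they did. On day 7 HR had 6.52, 7.46 and 4.07 CPM in MI hearts, against 17.98, 7.69 and 12.3 CPM in naive hearts. It did not overlap there and was not called, while ENTPD6 and FGF16 overlapped on day 7. In all 30 genes of the plot by age, the fold changes of days 7 and 14 were smaller in size than that of day 28, the day on which they were chosen.

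**Figure D5:**
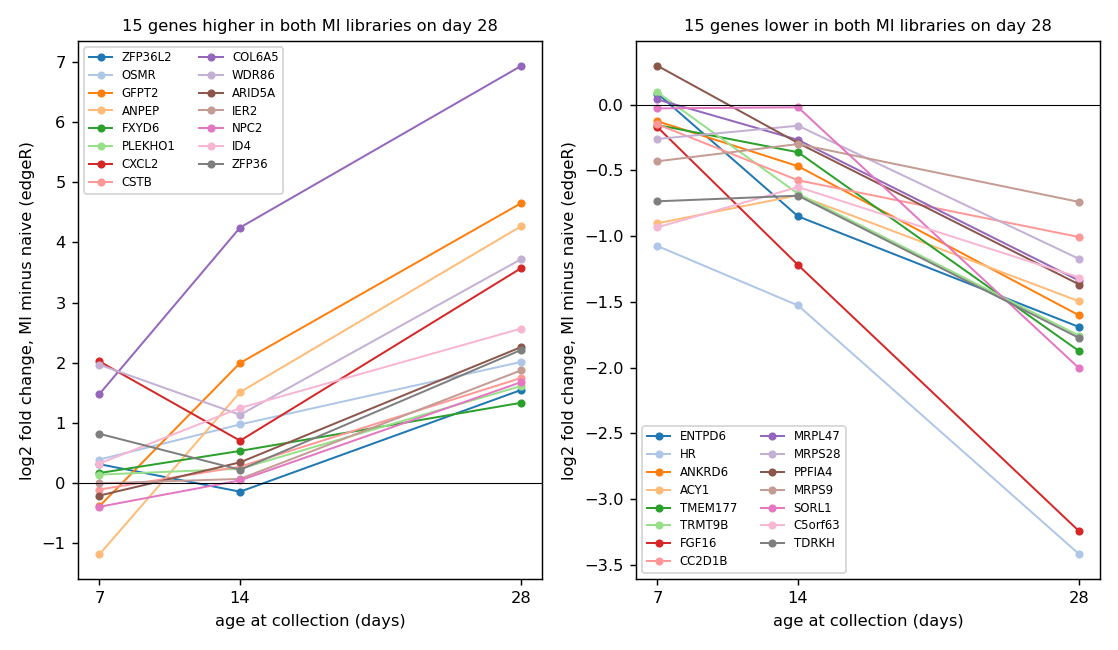
edgeR log2 fold change of MI over naive hearts (vertical) at 7, 14 and 28 days of age (horizontal) for the 15 genes with the smallest adjusted p on day 28 among those called higher (left) and lower (right) without overlap. Each line is a gene, without error bars. Each line lies nearer to 0 on days 7 and 14 than on day 28, the day on which the genes were chosen. COL6A5 is the highest on day 14, at 4.25.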

How the data were processed

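Total RNA of heart tissue from 21 pigs was sequenced, and the deposited values are whole-number counts of reads for 25880 Ensembl genes in the 21 libraries. The submitters' processing notes name Trim Galore, STAR 2.5.2, HTSeq 0.6.1, DESeq2 and the Sscrofa11.1 build. The sources used here give no annotation release or strand setting, so reads of overlapping or near-identical genes may have been misassigned.

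The filterByExpr rule of edgeR 4.0.16 left 15359 genes over the 8 groups. All 21 libraries were fitted with 1 mean per group (TMM scaling, robust glmQLFit, 13 residual degrees of freedom, biological coefficient of variation 0.373), and 2 MI libraries were tested against 3 naive ones. DESeq2 1.42.0, voom of limma 3.58.1 and leave-one-out fits were alternatives. Sequences are RefSeq's, for 12632 of 13646 symbols. The members, the 56 gene lists, the naming rule and the motifs were chosen with earlier results of these data known, and the 5 sequences printed after their values were seen. Named genes are up to 4 called members of a list with the smallest adjusted p, the 15 higher and 15 lower genes with the smallest adjusted p without overlap, the 15 genes of largest fold in each 1-library set, and members that complete a pathway; some genes that the rule names are not reported here. UAP1, ID2, FTL, SAT1, FGFR2, NKD1, KCNQ5, CLCF1, ACTG1, LARS2, GOT2, SGCD, SLMAP, TRIM55 and DNM1L were named after their values were seen.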

Additional observations from a re-analysis of the deposited data

Results flagged for a closer look

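For 2 genes the MI effect of day 28 differed from that of day 7 by the interaction test of edgeR. For ANPEP the difference in log2 fold change was 5.47 (adjusted p = 0.0372), with the MI effect at 4.27 on day 28 and -1.19 on day 7. ENSSSCG00000035617, which carries no symbol in the table, went the other way, with a difference of -4.52 (SE 0.57, adjusted p = 0.00767). It had 5.44 and 14.5 CPM in the MI libraries of day 28, against 43.5, 57.8 and 50.05 CPM in the naive ones (log2 fold change -2.34, adjusted p = 0.0136), and its MI effect was 2.18 on day 7.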

How the results depend on the processing

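The counts of called genes depended on the fit. Against 687 higher and 366 lower, DESeq2 gave 1439 and 766, voom with sample weights 44 and 2, the 5 day 28 libraries alone 2 and 0, the 11 libraries of days 14 and 28 alone 1 and 1, a term for the 4 libraries lacking ENSSSCG00000035520 401 and 245, and no low-count filter 501 and 220. Leaving out 1 library gave 12 to 1034 higher and 5 to 324 lower, the fewest without naive replicate 3. Without MI replicate 1 the counts were 1034 and 128, and without MI replicate 2 they were 539 and 324. The difference between days 28 and 14 gave 33 calls by DESeq2 and 0 to 92 with 1 library left out. That between days 28 and 7 gave 695 by DESeq2, 1 with the term and 1 to 528 with 1 library left out. Both MI libraries lay above naive for 843 genes and below for 612 with a gap of 1.5-fold, below for 1874 with CPM by total counts, and above for 3153 to 5162 and below for 3735 to 5665 with 1 library left out. Genes high in MI replicate 1 only numbered 14 with CPM by total counts, 161 at 2-fold, 15 at 8-fold and 70 with the other MI library allowed 1.5-fold above naive, and those in MI replicate 2 only 329, 500, 72 and 296. Leaving out 1 naive library gave 31 to 41 and 205 to 212. Scaling by DESeq2's size factors gave 830 higher and 290 lower calls and a median log2 fold change over all genes of 0.067. Of the 118 named calls, DESeq2 kept 112, the term 101 and voom 22. The 5 day 28 libraries alone kept 2 of them, and the 11 libraries of days 14 and 28 alone kept 1. No paired analysis was possible because the replicate numbers were given in accession order and pair no pigs. The 2 MI pigs limit the precision of every fold change.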
